A study of Mus musculus with 8 samples.

Results

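The genes described here are the NF-kappaB (nuclear factor kappa B) subunits and inhibitors of the mouse, 10 of the 36255 genes in the count table. They are the 5 subunits Nfkb1, Nfkb2, Rela, Relb and Rel, the 4 inhibitors Nfkbia, Nfkbib, Nfkbie and Bcl3, and Tnfaip3, which damps the pathway that switches it on. They were chosen by name and not by a cut on measured values, but earlier results of these data were known. Poly(A) RNA was sequenced in 4 groups of 2 libraries, numbered by lots. The groups were Skp1a KO embryoid bodies at day 2 (EBd2, aggregates in which embryonic stem cells begin to differentiate; lots 1 and 2), Skp1a fl/fl EBd2 (lots 1 and 12), Skp1a KO embryonic stem (ES) cells (lots 1 and 12) and Skp1a fl/fl ES cells (lots 1 and 2). Skp1a encodes the adaptor that joins CUL1 to F-box proteins in SCF ubiquitin ligases, and fl/fl marks its floxed allele. The stated aim is to compare expression between the genotypes in ES cells and in embryoid bodies. The labels do not say how the allele was deleted, which line it was made in, how many clones were used or what a lot is. Each p value therefore reflects the spread among these 8 libraries alone, and that spread may be technical. A library is named by its group and lot, as in KO ES lot 1.

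The tissue field of the labels calls every KO library ES cells and every fl/fl library embryoid bodies, which conflicts with the titles, and groups follow the titles. Libraries held 7858452 to 10055667 counts in EBd2 and 21545868 to 23343471 in ES cells. Summed markers of formative and primed epiblast stood at 322.9 to 333.2 CPM in KO EBd2 and 1809 to 1938 CPM in fl/fl EBd2, against 180.3 to 188.4 CPM in KO ES cells and 214.2 to 219 CPM in fl/fl ES cells, so both kinds of EBd2 lay above both kinds of ES cells (CPM is the count scaled to a common library total, with TMM factors). In KO EBd2, 258 to 272 CPM of the epiblast sum was Dnmt3b. From KO ES cells to KO EBd2, 4 of the 5 epiblast markers rose by the edgeR test. Otx2 did not, with 9.54 to 9.73 CPM in KO ES cells and 8.85 to 10.2 CPM in KO EBd2. Pluripotency markers summed to 1930 to 2061 CPM over the 4 EBd2 libraries and to 3178 to 3593 CPM over the 4 ES cell libraries. Skp1a itself was at 72.8% of its fl/fl level in KO EBd2 (edgeR adjusted p = 5.13e-07) and at 85.9% in KO ES cells (edgeR adjusted p = 0.00073). Most of its RNA was therefore still counted, and the genotype is called by its label throughout.

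NF-kappaB proteins act as dimers that bind kappaB sites in DNA. In resting cells IkappaB proteins such as IkappaB-alpha (the product of Nfkbia) hold the dimers in the cytoplasm, until an IKK kinase complex phosphorylates the inhibitor and the SCF ligase with the F-box protein BTRC or FBXW11 marks it for the proteasome. That ligase contains SKP1, and the same machinery acts on the p105 and p100 precursors encoded by Nfkb1 and Nfkb2. The dimers then raise transcription of Nfkbia and Tnfaip3, whose products shut the signal off, and in mouse ES cells NF-kappaB activity is known to be low. The data are transcript counts only. Protein, phosphorylation and nuclear location were not measured.

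Promoter windows show which of these genes carry kappaB letters next to their start, the feature by which several of them respond to the factor they encode. Windows of 300 bases (250 before to 50 after a RefSeq start, GRCm38.p6) were found for 8 of the 10 genes, all but Nfkb1 and Relb. The kappaB consensus, searched on both strands, was present for 6 of these 8 genes (75%) and for 5.14% of the 27025 genes with a window. It was also present for 11 of 21 listed NF-kappaB target genes (52.4%). Rela and Nfkbib had no match. A match describes letters and is not evidence of binding. The stretches below are written 5′ to 3′ on the gene's strand, with the matching letters in capitals and 11 capitals where matches on opposite strands overlap. They are shown for all 6 genes with a match, whether or not the gene was called in a comparison.
Nfkb2, first start, chr19:46304689-46304718 (+): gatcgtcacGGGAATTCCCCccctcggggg
Nfkb2, first start, chr19:46304716-46304745 (+): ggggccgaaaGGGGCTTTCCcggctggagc
Nfkb2, second start, chr19:46305449-46305478 (+): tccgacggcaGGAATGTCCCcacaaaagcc
Nfkb2, second start, chr19:46305695-46305724 (+): tggtattttcGGGACTTTCCtaagcagcac
Rel, chr11:23771041-23771070 (-): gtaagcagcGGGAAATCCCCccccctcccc
Nfkbia, chr12:55492657-55492686 (-): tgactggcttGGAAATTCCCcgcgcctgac
Nfkbie, chr17:45555584-45555613 (+): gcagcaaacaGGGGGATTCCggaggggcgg
Bcl3, chr7:19822734-19822763 (-): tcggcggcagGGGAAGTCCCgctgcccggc
Tnfaip3, chr10:19015516-19015545 (-): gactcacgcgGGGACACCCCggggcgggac
Tnfaip3, chr10:19015403-19015432 (-): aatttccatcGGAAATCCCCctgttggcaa
The Rela sequence upstream of its start is shown for contrast, as the only one of these genes called higher in EBd2 than in ES cells in both genotypes, with no match in its window. It was thus picked by its result. Nfkbib, the other gene with no match, was called with stage in neither genotype, and a link between match and stage was not tested.
Rela, chr19:5637291-5637482 (+): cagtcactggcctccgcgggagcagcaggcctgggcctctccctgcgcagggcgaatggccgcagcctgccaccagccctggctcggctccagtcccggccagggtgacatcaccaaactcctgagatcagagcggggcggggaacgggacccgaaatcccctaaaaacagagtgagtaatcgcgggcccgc

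All 10 genes passed the filter on low counts. The lowest count of any of them in a library was 11, for Tnfaip3 in KO EBd2. Divided by exon length (CPM per kb of merged exons), Nfkbia was the most abundant in every group, with 20.8 to 23.3 in KO EBd2, 20.6 to 21.9 in fl/fl EBd2, 20.7 to 21.1 in KO ES cells and 28.4 to 29.1 in fl/fl ES cells. In KO EBd2 the order of levels per kb then ran Rela, Nfkbib, Nfkb2, Bcl3, Relb and Nfkb1, with no overlap between neighbours, before Rel and Nfkbie, whose libraries overlapped, and Tnfaip3. In fl/fl EBd2 it ran Nfkbib, Rela, Nfkb2, Nfkb1, Relb, Bcl3, Nfkbie, Rel and Tnfaip3, again by level per kb. In ES cells Nfkbib and Bcl3 overlapped in both genotypes, with Nfkb2 among them in KO and above them in fl/fl. Rela, Relb and Nfkb1 followed in that order, and Rel, Nfkbie and Tnfaip3 stood at 0.963 CPM per kb or less. Merged exons join all annotated transcripts of a gene and come to 12061 bases for Nfkb1 and 3072 bases for Rela. The transcripts in use were not measured, and the order between genes rests on these lengths.

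**Figure D1:**
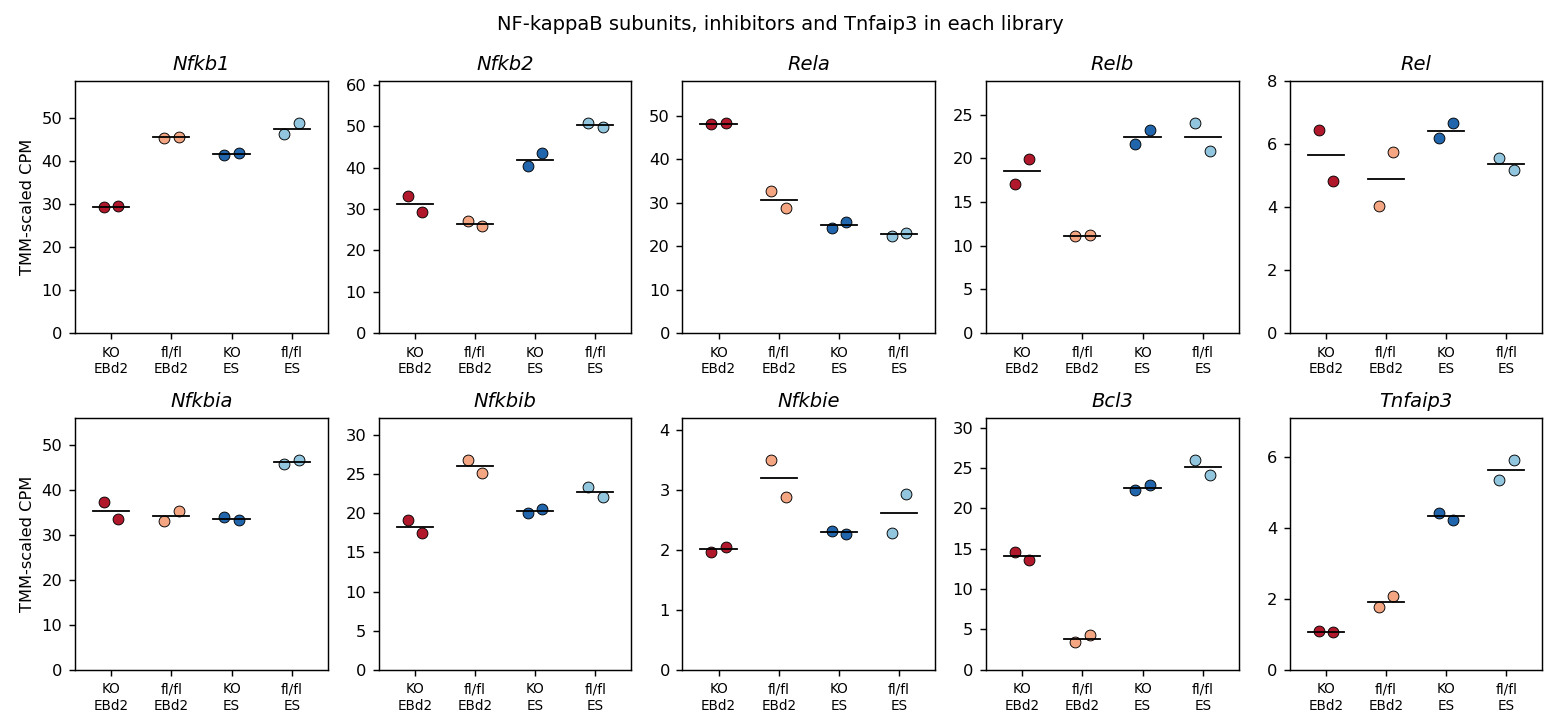
Level of each gene in TMM-scaled CPM (linear axes from 0) in the 2 libraries of KO EBd2, fl/fl EBd2, KO ES cells and fl/fl ES cells; points are libraries and lines are group means. Bcl3 stands at 13.6 to 14.6 CPM in KO EBd2 and 3.37 to 4.27 CPM in fl/fl EBd2, and Rela is highest in KO EBd2.

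In EBd2, KO libraries carried more Bcl3, Relb, Rela and Nfkb2 RNA and less Nfkb1 and Nfkbib RNA than fl/fl libraries. The largest difference was in Bcl3, 3.65-fold higher. In bulk RNA, fewer cells of a type and less RNA per cell cannot be told apart. In all 6 of 10 genes were called (4 higher, 2 lower) at an adjusted p under 0.05 in the edgeR quasi-likelihood test with Benjamini-Hochberg adjustment, the test behind every adjusted p here unless DESeq2 is named. Of all 16542 genes tested, 62.2% were called, 30.7% higher and 31.5% lower, so the share among these genes was near that background. Their median log2 fold change was 0.11, against 0.00 over all genes. With scaling by library size only, the median of all genes lay 0.23 higher, and 67.9% of all calls were on the higher side, against 49.3% with TMM.

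Rela (chr19:5637483-5648130, GRCm38), which encodes the transactivating p65 subunit, had 48.1 and 48.4 CPM in KO EBd2, against 32.6 and 28.9 CPM in fl/fl EBd2. Both KO libraries lay above both fl/fl libraries, a difference of 0.65 ± 0.08 (log2 fold change ± standard error, n = 2 each; adjusted p = 1.86e-05). This standard error can lie below the error of counting alone, most clearly for genes of few counts. Relb (chr7:19606217-19629438), the main partner of p52 in the non-canonical pathway, had 17.0 and 19.9 CPM in KO and 11.1 and 11.2 CPM in fl/fl. It was 1.66-fold higher in KO (0.74 ± 0.13, adjusted p = 5e-04), with no overlap. Relb transcripts share a stretch of 103 to 125 bases, at 95% identity or more, with transcripts of 32 other genes, and how reads matching several genes were counted is not given.

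Nfkb1 (chr3:135584655-135691547), which encodes p105 and its product p50, had 29.2 and 29.6 CPM in KO EBd2, against 45.3 and 45.6 CPM in fl/fl EBd2. It thus fell to 64.7% of the fl/fl level (-0.63 ± 0.07, adjusted p = 7.37e-06), in the direction opposite to Rela, with no overlap between groups. Nfkb2 (chr19:46304320-46312385), which encodes p100 and its product p52, had 33.2 and 29.2 CPM in KO and 27.0 and 25.9 CPM in fl/fl. This difference was small (0.24 ± 0.09, adjusted p = 0.0341) and its call was lost by DESeq2 (adjusted p = 0.0541), without KO EBd2 lot 1 (0.25) and without fl/fl EBd2 lot 1 (0.0757) or 12 (0.167). Here and from here on, a bare number in parentheses after a setting or a left-out library is the adjusted p found there. Exons of Psd on the other strand cover 6.5% of Nfkb2 exon bases, those of the noncoding gene AC114539.1 cover 11.6%, and Psd was itself higher in KO EBd2 (1.03 ± 0.21, adjusted p = 0.00107). The strand setting of the counts is not given, so reads from the shared bases cannot be told apart. Rel (chr11:23736847-23770970), the c-Rel subunit best known from lymphocytes, had 6.47 and 4.83 CPM in KO and 4.05 and 5.77 CPM in fl/fl. The libraries overlapped, and the 95% interval of the log2 fold change, -0.29 to 0.65, leaves both directions possible (adjusted p = 0.486).

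Among the inhibitors, Bcl3 (chr7:19808462-19822770) encodes a nuclear IkappaB protein that binds p50 or p52 dimers and can activate as well as repress. It had 149 and 152 counts (14.6 and 13.6 CPM) in KO EBd2, against 25 and 37 counts (3.37 and 4.27 CPM) in fl/fl EBd2. Both KO libraries lay far above both fl/fl libraries, with a log2 fold change of 1.87 ± 0.15 (adjusted p = 6.47e-07), the only one of these genes past a test for changes beyond 1.5-fold. Exons of the antisense gene Gm16175 cover 6.5% of Bcl3 exon bases. Nfkbia (chr12:55489410-55492647) had 37.4 and 33.5 CPM in KO EBd2 and 33.2 and 35.3 CPM in fl/fl EBd2. These libraries overlapped, and the 95% interval of the log2 fold change was -0.12 to 0.21 (0.05 ± 0.08, adjusted p = 0.649), although scaling by library size only gave 0.27 (adjusted p = 0.00823).

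Nfkbib (chr7:28758251-28767512), which encodes IkappaB-beta, fell in KO EBd2 to 70.3% of fl/fl. It had 19.1 and 17.4 CPM in KO and 26.8 and 25.1 CPM in fl/fl (-0.51 ± 0.09, adjusted p = 0.000494), with no overlap. Exons of Ccer2 on the other strand, at 0.294 CPM or less in every library, cover 14.5% of its exon bases. Nfkbie (chr17:45555703-45563169), which encodes IkappaB-epsilon, had 20 and 23 counts in KO and 26 and 25 counts in fl/fl from smaller libraries, or 1.96 and 2.06 CPM in KO against 3.51 and 2.89 CPM in fl/fl. The libraries did not overlap, but the difference did not pass (-0.66 ± 0.27, adjusted p = 0.0538). Tnfaip3 (chr10:19000910-19015657), which encodes the ubiquitin-editing enzyme A20 and is a classical NF-kappaB target, had 11 and 12 counts in KO and 13 and 18 in fl/fl. With 1.08 and 1.07 CPM in KO below the 1.75 and 2.08 CPM of fl/fl, it did not pass either (-0.84 ± 0.29, adjusted p = 0.052).

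Markers of other cell types moved with genotype in EBd2. Summed fibroblast feeder markers stood at 179.3 to 192.4 CPM in KO EBd2 and 52.2 to 55.5 CPM in fl/fl EBd2, with 9 of 11 tested markers higher. Haematopoietic and immune markers summed to 120.9 to 125.3 CPM in KO and 30.3 to 32.0 CPM in fl/fl, where Adgre1 and Tyrobp had 0 counts. Most of the KO sum was Laptm5 (71.5 to 72.2 CPM), Cd68 (30.4 to 32.3 CPM) and Csf1r (12.7 to 14.5 CPM). With Cd3e these were the 4 of 8 tested that were higher. Spi1, Itgam, Adgre1 and Cd79a were not called. Ptprc (0.098 to 0.179 CPM for KO, 0.115 to 0.27 CPM for fl/fl) and Tyrobp were too low to test. Endoderm markers summed to 1079 to 1088 CPM in KO and 465.8 to 508.4 CPM in fl/fl (9 of 10 higher, 1 lower), and trophectoderm markers to 786.7 to 803 CPM in KO and 291.1 to 299.7 CPM in fl/fl (8 of 9 higher, 1 lower). All 5 epiblast markers were lower in KO, and of 8 pluripotency markers 4 were higher and 3 lower. Mitochondrial genes took 3.15% to 3.24% of counts in KO EBd2 and 2.28% to 2.70% in fl/fl EBd2. The part of these shifts in the levels of the 6 called genes was not tested.

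**Figure D2:**
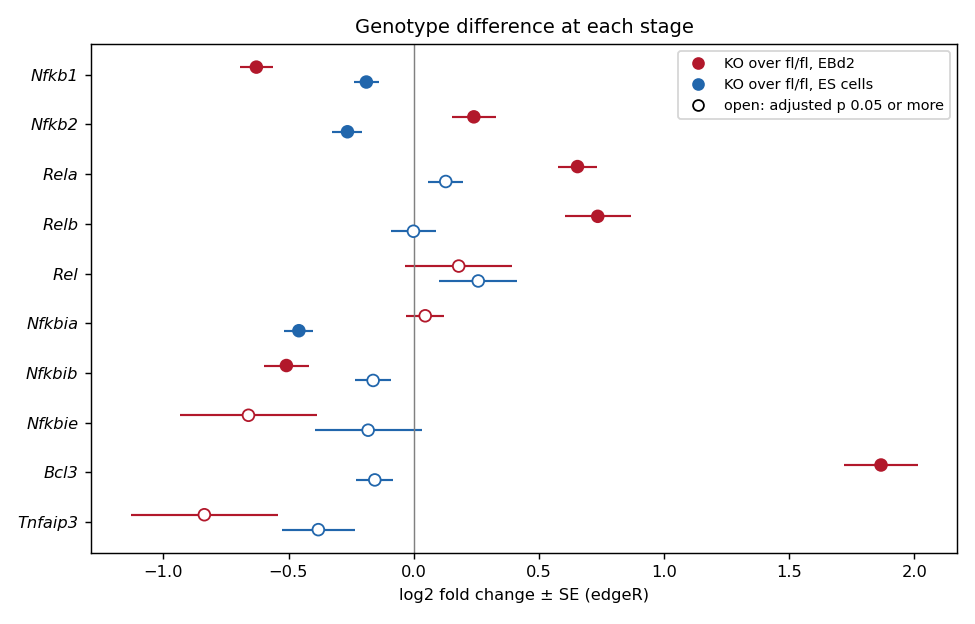
Log2 fold change of KO over fl/fl in EBd2 (red) and in ES cells (blue) for the 10 genes; bars are standard errors, filled points passed the edgeR test at an adjusted p under 0.05 and open points did not. Bcl3 stands at 1.87 in EBd2 and -0.16 in ES cells, and Nfkb1 is lower in KO at both stages. Bars can be too short, most clearly for genes with few counts.

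In ES cells 3 genes were called between the genotypes, Nfkbia, Nfkb2 and Nfkb1, and all were lower in KO. Of all genes tested 23.7% were called, 10.9% higher and 12.8% lower. The median over the 10 genes was -0.17, against 0.00 over all genes. With library size only, 72.1% of all calls were on the higher side, against 46% with TMM. The number called among the 10 genes was 1 without KO ES lot 1 or without fl/fl ES lot 2.

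Nfkbia had 34.0 and 33.3 CPM in KO ES cells, against 45.8 and 46.8 CPM in fl/fl ES cells. That left 72.8% of the fl/fl level in KO (-0.46 ± 0.06, adjusted p = 0.000326), with no overlap, and it was past the threshold under 15 of 15 other settings of scaling, filter, tool, groups, block or left-out library. Nfkb2 had 40.3 and 43.4 CPM in KO and 50.8 and 49.8 CPM in fl/fl. Its difference of -0.26 ± 0.06 (adjusted p = 0.00879) lost its call without KO ES lot 1 (0.096) and without fl/fl ES lot 1 (0.0716) or 2 (0.0536). Nfkb1 had 41.3 and 41.9 CPM in KO and 46.2 and 48.8 CPM in fl/fl (-0.19 ± 0.05, adjusted p = 0.0176). That call was lost by DESeq2 (0.0583), with library size only (0.108) and without KO ES lot 1 (0.109) or 12 (0.0726) or fl/fl ES lot 2 (0.16).

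Bcl3, the gene that differed most in EBd2, had 22.2 and 22.9 CPM in KO ES cells and 26.0 and 24.2 CPM in fl/fl ES cells (-0.16 ± 0.07, adjusted p = 0.157). Relb had 21.7 and 23.3 CPM in KO and 24.0 and 20.9 CPM in fl/fl. Its libraries overlapped, with a 95% interval of the log2 fold change from -0.20 to 0.19. Rela had 24.2 and 25.5 CPM in KO and 22.4 and 23.2 CPM in fl/fl, and Rel 6.20 and 6.67 CPM in KO and 5.57 and 5.18 CPM in fl/fl. Neither passed (Rela 0.13 ± 0.07, adjusted p = 0.21, and Rel 0.26 ± 0.16, adjusted p = 0.265). Nfkbib had 20.02 and 20.5 CPM in KO and 23.3 and 22.03 CPM in fl/fl (-0.16 ± 0.07, adjusted p = 0.13). Nfkbie had 2.32 and 2.27 CPM in KO and 2.29 and 2.93 CPM in fl/fl, with overlapping libraries (adjusted p = 0.59). Tnfaip3 had 4.42 and 4.22 CPM in KO and 5.34 and 5.91 CPM in fl/fl, which did not pass (-0.38 ± 0.15, adjusted p = 0.0832). Feeder markers summed to 740.4 to 803.1 CPM in KO ES cells and 635.5 to 670 CPM in fl/fl ES cells, and 4 of 11 tested were higher in KO. Among trophectoderm markers 4 of 9 were higher and 1 lower, and 1 of 8 tested immune markers was higher. Lower in KO ES cells were 5 of 8 pluripotency, 3 of 10 endoderm and 2 of 5 epiblast markers. Mitochondrial genes took 2.42% to 2.43% of counts in KO ES cells and 1.73% to 1.76% in fl/fl ES cells. The part of these shifts in the levels of Nfkbia, Nfkb2 and Nfkb1 was not tested.

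Whether the genotype difference itself differed between stages was tested by the interaction of genotype and stage, with KO over fl/fl in EBd2 set against the same in ES cells. Of the 10 genes 7 were called, 5 with a positive and 2 with a negative interaction, against 48% of all genes (22.4% positive and 25.7% negative). Bcl3 stood furthest out, at 2.02 ± 0.17 (adjusted p = 2.37e-06). Relb (0.74 ± 0.16, adjusted p = 0.00269) and Rela (0.53 ± 0.10, adjusted p = 0.00148) were higher in KO EBd2 without a called difference in ES cells. Nfkb2 (0.50 ± 0.11, adjusted p = 0.00231) was lower in KO ES cells and higher in KO EBd2. Nfkbia (0.50 ± 0.10, adjusted p = 0.00115) was lower in KO ES cells, with no called difference in EBd2. The fall of Nfkb1 in KO was larger in EBd2 than in ES cells (-0.44 ± 0.08, adjusted p = 0.00108). The interaction of Nfkbib (-0.35 ± 0.12, adjusted p = 0.0288) was past the threshold under 6 of 14 other settings. It was lost by DESeq2 (0.131), with library size only (0.201), and without KO EBd2 lot 2 (0.108), fl/fl EBd2 lot 1 (0.0857), KO ES lot 1 (0.0536) or 12 (0.0772) or fl/fl ES lot 2 (0.0827). With library size only, 5 genes had a positive and 1 a negative interaction, the median of all genes lay 0.16 higher, and 62.6% of all calls were positive, against 46.6% with TMM. Rel, Nfkbie and Tnfaip3 did not pass.

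From ES cells to EBd2, 5 of the 10 genes fell in each genotype and Rela rose. In KO, 6 of the 10 genes were called (1 higher, 5 lower), against 64.8% of all genes (31.7% higher and 33.1% lower). In fl/fl also 6 were called (1 higher, 5 lower), against 59% of all genes (28.9% higher and 30.1% lower). The medians over the 10 genes were -0.24 in KO and -0.27 in fl/fl, against 0.00 and -0.02 over all genes. In KO, library size only raised the median of all genes by 0.15 and put 61.9% of all calls on the higher side, against 49% with TMM. Among the 10 genes it called 2 as higher and 4 as lower, with Nfkbia higher (0.22, adjusted p = 0.0118) and Relb no longer called.

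Rela was 1.94-fold higher in EBd2 than in ES cells in KO (0.96 ± 0.07, adjusted p = 3.07e-07) and 1.35-fold higher in fl/fl (0.43 ± 0.08, adjusted p = 0.000645). It was the only subunit or inhibitor called higher in EBd2 in either genotype with TMM scaling. Bcl3 fell in EBd2 to 62.5% of the ES cell level in KO (-0.68 ± 0.09, adjusted p = 4.56e-05) and to 15.4% in fl/fl (-2.70 ± 0.13, adjusted p = 1.21e-08). The genotype gap in EBd2 thus lay between levels that were both below those of ES cells. Tnfaip3 fell to 25.1% in KO (-2.00 ± 0.22, adjusted p = 1.08e-05) and to 34.4% in fl/fl (-1.54 ± 0.21, adjusted p = 5.73e-05), and the interaction did not pass (-0.46 ± 0.33, adjusted p = 0.367).

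The precursor genes differed from each other with stage. Nfkb2 fell to 74.5% in KO (-0.43 ± 0.07, adjusted p = 0.000282) and to 52.5% in fl/fl (-0.93 ± 0.08, adjusted p = 1.2e-06). Nfkb1 fell to 70.6% in KO (-0.50 ± 0.06, adjusted p = 1.76e-05), while in fl/fl its 45.3 and 45.6 CPM in EBd2 lay just under the 46.2 and 48.8 CPM of ES cells (-0.06 ± 0.06, adjusted p = 0.403). Relb fell to 49.6% in fl/fl (-1.01 ± 0.12, adjusted p = 2.27e-05). In KO its fall to 82.5% (-0.28 ± 0.10, adjusted p = 0.0317) was lost by DESeq2 (0.0873), with library size only (0.293) and without KO EBd2 lot 1 (0.225) or KO ES lot 12 (0.135). Nfkbia fell to 74.1% in fl/fl (-0.43 ± 0.07, adjusted p = 0.000227) and was 1.05-fold the ES cell level in KO, with overlapping libraries (0.07 ± 0.07, adjusted p = 0.353). Nfkbib, Nfkbie and Rel were called in neither genotype. Feeder markers, which summed to 52.2 to 192.4 CPM over the EBd2 libraries and 635.5 to 803.1 CPM over the ES cell libraries, were lower in EBd2, as Bcl3 was. Their part in these falls was not tested.

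**Figure D3:**
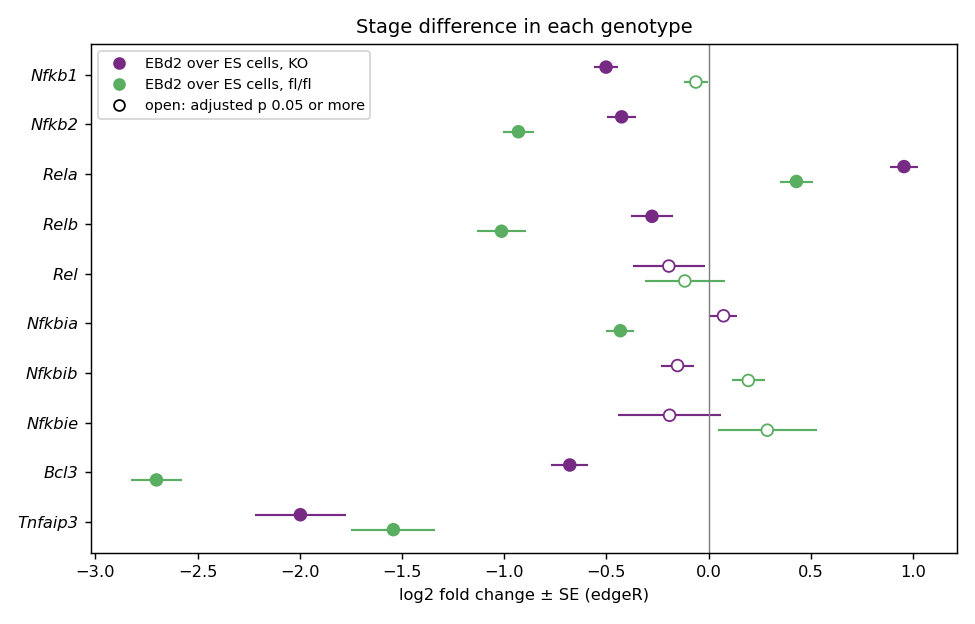
Log2 fold change of EBd2 over ES cells in KO (purple) and in fl/fl (green) for the 10 genes; bars are standard errors, filled points passed the edgeR test at an adjusted p under 0.05 and open points did not. Rela is higher in EBd2 in both genotypes, and Bcl3 stands at -0.68 in KO and -2.70 in fl/fl. Bars can be too short, most clearly for genes with few counts.

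Summed per exon length, the 5 subunits reached 30.6 and 30.4 CPM per kb in KO EBd2, 23.7 and 22.5 CPM per kb in fl/fl EBd2, 26.5 and 28.1 CPM per kb in KO ES cells and 29.1 and 28.5 CPM per kb in fl/fl ES cells. Rela made up 51.2% to 51.9% of the subunit sum in KO EBd2, 41.8% to 44.9% in fl/fl EBd2, 29.5% to 29.7% in KO ES cells and 25.0% to 26.4% in fl/fl ES cells, so its share was set apart in every group. Nfkb1 made up 7.92% to 8.08% in KO EBd2 and 15.9% to 16.8% in fl/fl EBd2, on the same scale. The ratio of the 4 inhibitors to the 5 subunits was 1.26 and 1.15 in KO EBd2, 1.501 and 1.61 in fl/fl EBd2, 1.51 and 1.43 in KO ES cells and 1.73 and 1.75 in fl/fl ES cells. At each stage both KO libraries had a lower ratio than both fl/fl libraries. Without Bcl3, which acts in the nucleus, the ratio was 1.07 and 0.973 in KO EBd2, 1.44 and 1.54 in fl/fl EBd2, 1.17 and 1.10 in KO ES cells and 1.37 and 1.41 in fl/fl ES cells, and the order of KO and fl/fl at each stage was the same. These ratios describe RNA, are unaffected by the scaling between libraries, and were not tested. Like the shares, they weight each gene by its merged exon length (12061 bases for Nfkb1, 3072 for Rela) and could differ with other lengths.

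**Figure D4:**
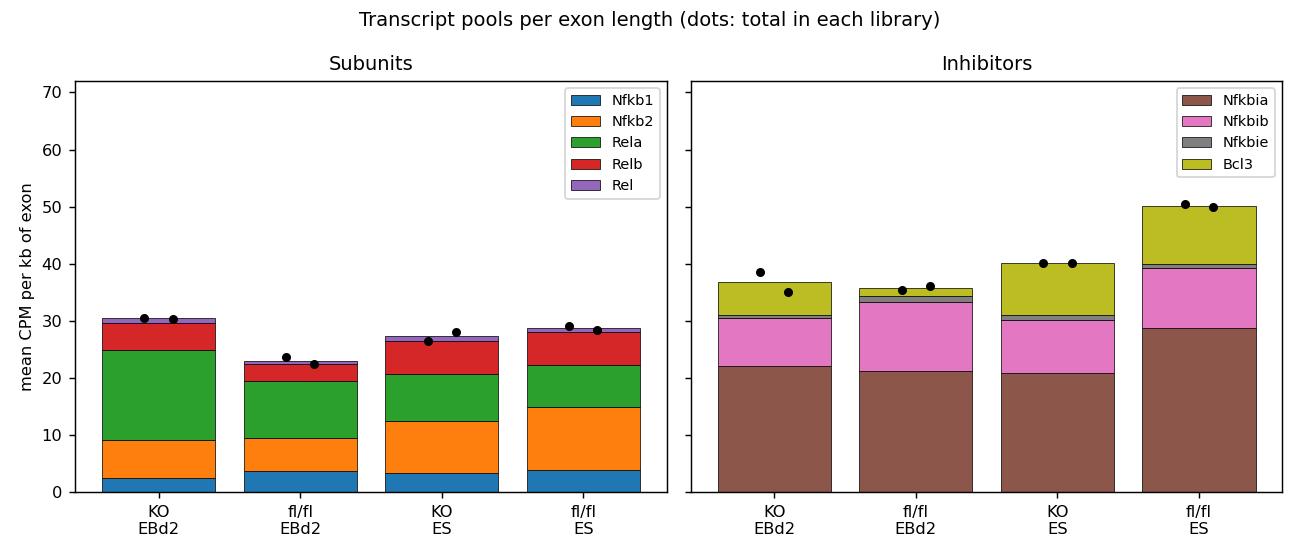
Stacked mean level per exon length (CPM per kb, linear axis from 0) of the 5 subunits (left) and the 4 inhibitors (right) in KO EBd2, fl/fl EBd2, KO ES cells and fl/fl ES cells; dots are the totals of the 2 libraries. Subunit totals lie at 30.4 to 30.6 in KO EBd2 and 22.5 to 23.7 in fl/fl EBd2, with Rela the largest segment in both. Segment heights rest on merged exon lengths (12061 bases for Nfkb1, 3072 for Rela).

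Other genes of the pathway were counted in EBd2 by role, where 62.2% of all genes were called. Of 15 tested receptors and ligands (of 20 listed), 8 were higher in KO EBd2 and 2 lower, with a median log2 fold change of 0.89, against 0.00 over all genes. Edar, among those tested, had 17 counts in KO EBd2, 0 in fl/fl EBd2, 3 in KO ES cells and 2 in fl/fl ES cells. It thus passed the filter only through the group where it was high. A call of Edar adds nothing to the 8 higher, and without it the median was 0.81. Tnfrsf1a, the main TNF receptor, averaged 21.5 CPM in KO and 7.66 CPM in fl/fl (1.48 ± 0.13, adjusted p = 1.66e-06). Ltbr, the lymphotoxin beta receptor (1.02 ± 0.14), and Tnfrsf12a, the TWEAK receptor (0.88 ± 0.14), were higher too. A stricter filter on low counts left 5 calls in this list. The ligand genes Tnf, Lta, Il1a, Il1b and Tnfsf13b were too low to test. Of 27 adaptors and kinases 10 were higher and 7 lower (median -0.01), or 14 higher and 2 lower with library size only. The scaffold kinase Ripk1 (1.12 ± 0.09) and the IL-1 receptor kinase Irak2 (1.63 ± 0.14) rose in KO, and Tab2, an adaptor of the kinase TAK1, fell (-0.48 ± 0.05).

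Of the IKK complex in EBd2, Ikbkb, the catalytic kinase of the canonical pathway, averaged 30.2 CPM in KO and 29.7 CPM in fl/fl (0.02 ± 0.09, adjusted p = 0.875), although library size only gave 0.25 (adjusted p = 0.0312). Its regulatory partner Ikbkg was higher (0.31 ± 0.09, adjusted p = 0.00999), a call lost without KO EBd2 lot 1 (0.122) or fl/fl EBd2 lot 1 (0.0541). Chuk, the kinase IKK-alpha, was lower (-0.16 ± 0.06, adjusted p = 0.0336), but library size only turned the direction (0.07, adjusted p = 0.331). The call was lost by DESeq2 (0.105), under a stricter filter on low counts (0.157) and in a fit of the EBd2 libraries alone (0.104). It was also lost without KO EBd2 lot 1, fl/fl EBd2 lot 12 or fl/fl ES lot 2, at log2 fold changes of -0.131, -0.0896 and -0.151. Traf3, which holds the non-canonical pathway in check, was higher (0.49 ± 0.09, adjusted p = 0.000692). Map3k14, the kinase NIK that drives that pathway, averaged 2.76 CPM in KO and 1.64 CPM in fl/fl (0.76 ± 0.29, adjusted p = 0.0413). That call was lost by DESeq2 (0.158), with no filter on low counts (0.0565), in a fit of the EBd2 libraries alone (0.0614) and without KO EBd2 lot 1 (0.0949) or 2 (0.106), fl/fl EBd2 lot 12 (0.265) or KO ES lot 1 (0.0546) or 12 (0.0567).

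Among 9 genes of the IkappaB ligase and of p100 and p105 processing, 5 were lower in KO EBd2 and 1 higher (median -0.30), and with library size only 3 were lower and 1 higher. Rbx1, the RING subunit of cullin ligases, fell to 55.8% of fl/fl (-0.84 ± 0.07, adjusted p = 6.24e-07), and the scaffold Cul1 to 75% (-0.41 ± 0.04, adjusted p = 2.18e-06). Btrc, an F-box protein that recognises IkappaB, averaged 39.0 CPM in KO EBd2 and 48.3 CPM in fl/fl EBd2 (-0.31 ± 0.06, adjusted p = 0.00143), a call lost with library size only (-0.08, adjusted p = 0.317). Its paralogue Fbxw11 averaged 93.0 CPM in KO and 100.4 CPM in fl/fl and did not pass (-0.11 ± 0.05, adjusted p = 0.0661), although it did without KO EBd2 lot 1 (0.0258). The F-box gene Fbxw7 was higher (0.58 ± 0.06, adjusted p = 6.43e-06).

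Of 17 tested genes of other IkappaB-like proteins and negative regulators 7 were higher in KO EBd2 and 1 lower (median 0.12), or 11 higher with library size only. Tnip2, which binds A20 (1.77 ± 0.16), the mitochondrial protein Nlrx1 (1.84 ± 0.18) and the RNase Zc3h12a (1.31 ± 0.15) had the smallest p values among those at 5 CPM or more in the higher group, and the deubiquitinase Cyld rose as well (0.39 ± 0.10, adjusted p = 0.00429). Of 20 tested transcriptional targets (of 28 listed), 12 were higher and 3 lower, with a median of 1.05. Ccl2, among those tested, had 50 counts in KO EBd2, 0 in fl/fl EBd2, 29 in KO ES cells and 11 in fl/fl ES cells. It too passed the filter only through KO EBd2, so a call of Ccl2 adds nothing to the 12 higher. Without Ccl2 and Cxcl5, which had 0 counts in KO EBd2, the median was also 1.05. Tnfaip2 averaged 9.53 CPM in KO and 1.29 CPM in fl/fl (2.86 ± 0.21), the cyclooxygenase Ptgs2 11.9 CPM in KO and 1.98 CPM in fl/fl (2.58 ± 0.18), and the survival gene Bcl2l1 76.0 CPM in KO and 36.9 CPM in fl/fl (1.04 ± 0.07, adjusted p = 1.19e-07). Ikbke, counted among the targets and named after its values were seen, encodes the IKK-related kinase IKK-epsilon. It had 131 counts in all in KO EBd2 and 8 in fl/fl EBd2, or 5.98 to 6.26 CPM and 0.461 to 0.540 CPM (3.599 ± 0.31, adjusted p = 1.2e-06). Tnfaip3 and Nfkbia, which are targets too, were not called in this comparison. The marker shifts given above for EBd2 apply here as well, and their part was not tested.

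**Figure D5:**
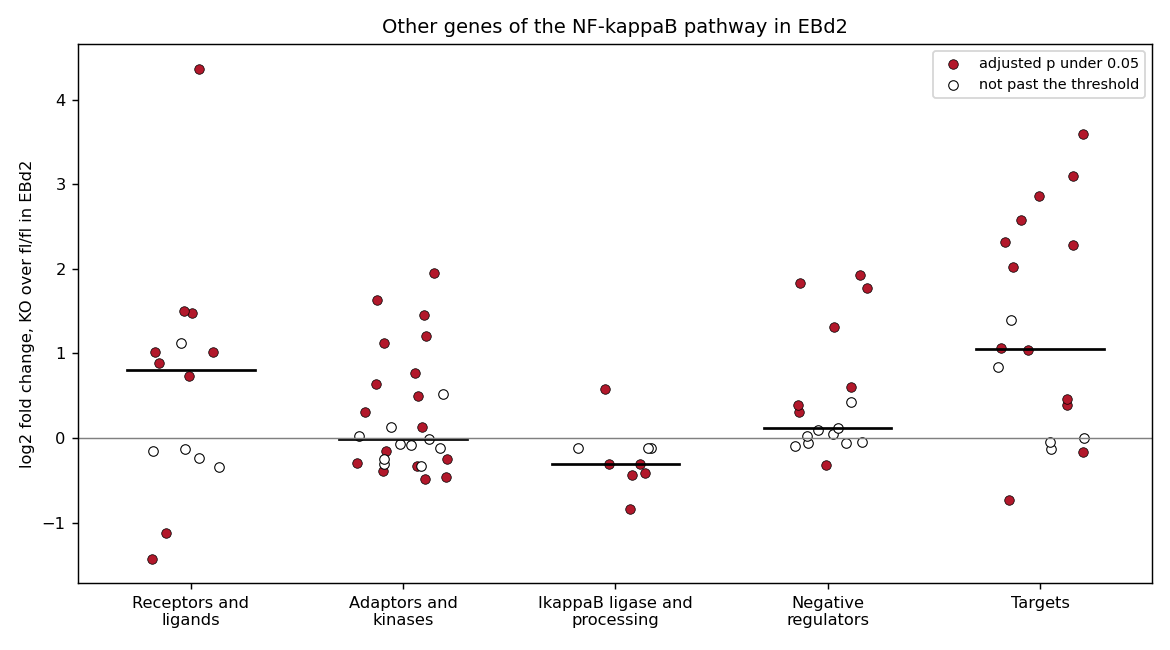
Log2 fold change of KO over fl/fl in EBd2 for other genes of the pathway, by role; filled points passed the edgeR test at an adjusted p under 0.05, open points did not, and lines are medians of the genes drawn (Edar, Ccl2 and Cxcl5, with 0 counts in a group, are left out). Receptors and targets lie mostly above 0, and ligase genes mostly below.

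In ES cells, where 23.7% of all genes were called, the same lists were counted again. Of 15 receptors and ligands 0 were called by edgeR and 0 by DESeq2, with 3 at an unadjusted p under 0.05. That count was 1 with library size only, with no filter, with a stricter filter and without fl/fl ES lot 1. Among targets 7 were higher in KO ES cells and 2 lower (median 0.33), or 9 higher and 1 lower with library size only. Tnfaip2 was higher (0.88 ± 0.10, adjusted p = 0.000186), and Icam1, an adhesion molecule, averaged 67.0 CPM in KO and 94.9 CPM in fl/fl (-0.50 ± 0.04, adjusted p = 3.81e-05). Zc3h12a was higher (0.76 ± 0.12, adjusted p = 0.00123). Pdlim2, which promotes turnover of nuclear p65, was also higher (0.50 ± 0.14, adjusted p = 0.0217), but not by DESeq2 (0.0746) nor without KO ES lot 1 (0.121) or fl/fl ES lot 2 (0.167). These were the 2 calls among the other negative regulators, 1 of which was left without either library, and 4 were higher with library size only.

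Among adaptors and kinases in ES cells 1 was higher and 2 lower, or 4 higher and 1 lower with library size only. The list had 1 call without KO ES lot 12 or fl/fl ES lot 1 and 0 without fl/fl ES lot 2. The ubiquitin ligase Birc2 (cIAP1) was lower (-0.27 ± 0.05, adjusted p = 0.00381), a call lost without fl/fl ES lot 2 (0.0625). Ripk1 was higher (0.37 ± 0.09, adjusted p = 0.00989), a call lost by DESeq2 (0.0618) and without KO ES lot 12 (0.0655) or fl/fl ES lot 1 (0.0682) or 2 (0.054). Of the ligase list 3 were lower, or 1 lower and 3 higher with library size only, and 1 was called without KO ES lot 12, fl/fl ES lot 1 or fl/fl ES lot 2. A stricter filter gave 3 higher and 2 lower. Rbx1 fell to 83.7% of fl/fl (-0.26 ± 0.05, adjusted p = 0.00458), and the deubiquitinase Usp15 (-0.15 ± 0.04, adjusted p = 0.0277) lost its call when any 1 ES cell library was left out (0.111 to 0.15) and with library size only (0.232). Btrc was slightly above fl/fl but not called (0.13 ± 0.05, adjusted p = 0.0757), although it was with library size only (0.0116) and under a stricter filter on low counts (0.0336). Its genotype difference in EBd2 was lower than in ES cells by the interaction (-0.44 ± 0.08, adjusted p = 0.0009). Chuk, Ikbkb, Ikbkg, Map3k14, Traf3, Fbxw11 and Cyld were not called in ES cells.

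With stage in fl/fl, 15 of the 20 tested targets were lower in EBd2 than in ES cells and 1 higher, against 30.1% and 28.9% of all genes (median of the targets -0.94, or -0.77 with genes at 0 counts in a group set to the bound that 3 counts give). In KO 9 were lower and 6 higher, against 33.1% and 31.7% of all genes (median of the targets -0.31). The interaction called 13 targets with a positive and 3 with a negative value, against 22.4% and 25.7% of all genes. Ccl2, which passed the filter only through KO EBd2, was among the targets tested. Feeder markers summed to 635.5 to 670 CPM in fl/fl ES cells and 52.2 to 55.5 CPM in fl/fl EBd2. Of 11 tested, 8 had a positive and 1 a negative called interaction. Their part in the target shifts was not tested.

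As a description of which genes shared the course of the extremes, distances between centred log2 CPM over the 8 libraries were taken for 11448 genes. The genes nearest to Bcl3, which rose most among those called in KO EBd2, were Anxa2, Nid1, Ubxn11 and Pcolce, at distances of 0.349 to 0.443 against a median of 3.14. Anxa2, an annexin, averaged 63.5 CPM in KO EBd2, 14.98 CPM in fl/fl EBd2, 98.4 CPM in KO ES cells and 107.3 CPM in fl/fl ES cells. Nid1, a basement membrane protein, averaged 142.4 CPM in KO EBd2, 44.0 CPM in fl/fl EBd2, 269.9 CPM in KO ES cells and 259.3 CPM in fl/fl ES cells. Nearest to Nfkb1, which fell most among those called there, were Msh6, Hdgf, Kdm1a and Ppp6r3, at distances of 0.0781 to 0.0931 against a median of 0.978. Msh6, a mismatch repair protein, averaged 498.7 CPM in KO EBd2, 772.2 CPM in fl/fl EBd2, 693.7 CPM in KO ES cells and 782.5 CPM in fl/fl ES cells.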

How the data were processed

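The authors deposited raw counts of reads per gene symbol, whole numbers with no normalization, for 36255 genes in 8 libraries. Per the submitters' processing notes, the tools include Trim Galore 0.6.7, and GRCm38 and mm10 are named as builds. No source used here gives the aligner, counter, annotation or strand setting. In R 4.3.3 with edgeR 4.0.16, filterByExpr kept 16542 genes, TMM factors scaled the libraries, and a model of 4 group means was fitted to all libraries (common biological coefficient of variation 3.4%, 4 residual degrees of freedom). The quasi-likelihood test (two-sided, Benjamini-Hochberg over all genes tested, threshold 0.05) gave 4 comparisons and the interaction. The standard error is the absolute log2 fold change over the square root of F, and 95% intervals use 11 degrees of freedom. For some genes this error lies below that of counting alone, most clearly for those of few counts, such as Tnfaip3, Bcl3 and Ikbke in EBd2. It does so for Nfkb1 in EBd2 as well. The standard errors and intervals are then too narrow. The p values rest on the same F and can be too small as well. The code was tested on simulated data. DESeq2 1.42.0, other scalings and filters, a fit of the groups compared alone, lots as blocks and leaving out each library were alternatives.

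Coordinates, exon lengths and overlaps come from GENCODE on GRCm38, and promoter sequences from RefSeq (GRCm38.p6). The libraries of a group differed by more than counting noise (chi-square per degree of freedom 2.11 to 2.72), so none was merged as a library deposited again. This does not show that they came from separate cultures. Lot numbers did not pair the libraries: deviations of lot 1 libraries from their group means correlated between groups at -0.0223 to 0.0183. Besides the 10 genes and Skp1a, the genes named were, per pathway list, the 3 called genes with the smallest p in EBd2 and the 2 in ES cells among those with a mean of at least 5 CPM in the higher group, plus Btrc, Fbxw11, Chuk, Ikbkb, Ikbkg, Map3k14, Traf3 and Cyld, and the 4 nearest genes of the largest called rise and fall. The genes and lists were chosen with earlier results of these data known.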

Additional observations from a re-analysis of the deposited data

Results flagged for a closer look

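The effect of genotype differed between the stages for 7 of the 10 genes by the edgeR test of the interaction, in log2 units of KO over fl/fl in EBd2 less the same in ES cells. The difference was 2.02 for Bcl3, 0.736 for Relb, 0.526 for Rela, 0.505 for Nfkb2 and 0.505 for Nfkbia. It was -0.439 for Nfkb1 and -0.346 for Nfkbib. Of all genes tested 48% passed the same test, so a difference of this kind was common in these data.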

How the results depend on the processing

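For the 10 genes no called log2 fold change reversed under any alternative, and RLE scaling, either filter on low counts and a fit of the groups compared alone (not run for the interaction) changed no call among them, although Nfkbie was not tested under the stricter filter. With lots as a replicate block the calls of Nfkb1 in ES cells (adjusted p = 0.139), of Relb with stage in KO (0.201) and of Nfkbib in the interaction (0.273) were lost and no other call of the 10 genes changed. That block called 13.5% of all genes in ES cells. A test for changes beyond 1.5-fold, chosen after seeing the data, called 0 of the 10 genes in ES cells, 1 in EBd2, 2 with stage in KO and 1 in the interaction. With stage in fl/fl it dropped only Rela and Nfkbia and kept Nfkb2, Relb, Bcl3 and Tnfaip3, more than in any other comparison. With each library left out in turn, the number called was 5 to 6 in EBd2, 1 to 3 in ES cells, 5 to 6 with stage in KO, 6 in every case with stage in fl/fl and 6 to 7 in the interaction. The share of all genes called was then 49.7% to 61.9% in EBd2, 11.8% to 22.1% in ES cells, 52.5% to 64% with stage in KO, 45.7% to 58.5% with stage in fl/fl and 39.1% to 44% in the interaction. With no filter, which tests more genes of few counts, it was 40.4%, 42.8%, 38.5% and 31.2% in EBd2, with stage in KO, with stage in fl/fl and in the interaction. Chuk in EBd2 reversed with library size only (0.0699); the cause was not tested. The same block lost the calls of Birc2 (adjusted p = 0.0618), Ripk1 (0.107), Rbx1 (0.0692) and Pdlim2 (0.071) in ES cells and of Chuk (0.176) and Map3k14 (0.0873) in EBd2. It left 0 of 3 adaptor calls, 1 of 3 ligase calls, 1 of 2 regulator calls and 5 of 9 target calls (3 higher, 2 lower) in ES cells, and 6 of 10 receptor calls in EBd2. Nfkbie and Tnfaip3 had 11 to 26 counts per library in EBd2, and what size of difference could be called there was not tested.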
